A study of Mus musculus with 8 samples.

Results

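The lysyl oxidase family was followed through fibroblasts, melanoma cells and other cells of large mouse melanomas. Its 5 genes (*Lox*, *Loxl1*, *Loxl2*, *Loxl3* and *Loxl4*) were taken by symbol from the 31053 genes of the feature tables, and all 5 were found. The tumours were B16F10 melanomas, grown from a mouse melanoma cell line in the flank of a host mouse and collected at 300 mm3. Each host carried Rosa26::CreERT2, a tamoxifen-activated Cre recombinase made in all tissues, and each received tamoxifen (200 mg per kg for 5 days). In *Atf4* WT/WT hosts (4 tumours, called WT1 to WT4) the *Atf4* gene was intact. In *Atf4* Δ/Δ hosts (4 tumours, called KO1 to KO4) the Cre removed the floxed *Atf4*, which encodes a transcription factor of the Integrated Stress Response. The mice were 12 weeks old by the sample labels, and both sexes were used. The implanted melanoma cells kept their own *Atf4* in both groups, and 1 droplet-based single-cell RNA library was made per tumour.

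Lysyl oxidases are secreted, copper-dependent enzymes. They oxidise lysine side chains of collagen and elastin, and the aldehydes formed then join into the cross-links that make collagen fibrils and elastic fibres stiff and insoluble. *Lox* and *Loxl1* share a short form with a propeptide that proteases remove, whereas *Loxl2*, *Loxl3* and *Loxl4* carry scavenger receptor domains ahead of the catalytic domain. *Lox* is a widely used fibroblast gene of tumour stroma, *Loxl1* is known for elastic fibres, and *Lox* and *Loxl2* are among the genes that rise under low oxygen through the factor HIF-1.

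The stretch below is 60 bases of coding sequence (GRCm38, GENCODE annotation) from the part that encodes the catalytic domain. It shows where 4 of the genes are most alike, and *Lox* was not included. The libraries count 3′ ends of transcripts, and how many reads fell here was not examined. The stretch was picked for the most bases shared with *Loxl2*, so it does not stand for the whole genes. It lies at coding bases 1500 to 1559 of *Loxl1*, 1935 to 1994 of *Loxl2*, 1875 to 1934 of *Loxl3* and 1887 to 1946 of *Loxl4*, counted from the start codon. Capitals mark the 40 bases that are the same in these 4 genes.
Loxl1: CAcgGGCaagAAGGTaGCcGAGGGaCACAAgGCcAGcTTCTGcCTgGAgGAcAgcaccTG
Loxl2: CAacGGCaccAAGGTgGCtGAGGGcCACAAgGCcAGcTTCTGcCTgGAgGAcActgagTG
Loxl3: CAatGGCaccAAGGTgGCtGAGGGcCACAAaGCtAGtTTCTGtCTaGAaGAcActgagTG
Loxl4: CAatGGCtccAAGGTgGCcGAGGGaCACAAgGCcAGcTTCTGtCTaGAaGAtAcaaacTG
In this stretch *Loxl3* matched *Loxl2* at 53 of 60 bases, *Loxl4* at 49 and *Loxl1* at 48. Over whole transcripts the longest run of identical bases between any 2 members was 32 bases, between *Lox* and *Loxl1*, which is shorter than a sequencing read.

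The 5 genes lie on different chromosomes of GRCm38. *Lox* (ENSMUSG00000024529) is at chr18:52516067-52529867 on the minus strand with 7 exons, and *Loxl1* (ENSMUSG00000032334) is at chr9:58287738-58313186 on the minus strand, also with 7 exons. *Loxl2* (ENSMUSG00000034205) is at chr14:69609068-69695834 and *Loxl3* (ENSMUSG00000000693) at chr6:83034173-83052562, both on the plus strand with 14 exons. *Loxl4* (ENSMUSG00000025185) is at chr19:42593982-42612813 on the minus strand with 15 exons. Exon numbers are those of 1 coding transcript per gene.

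The 8 libraries held 41925 barcodes (23101 from *Atf4* WT/WT hosts, 18824 from *Atf4* Δ/Δ hosts) and 37283598 to 74942137 unique molecular identifiers (UMIs, counted RNA molecules) per tumour. Filters left 28411 cells, and 28169 after the cluster with the highest mitochondrial share (242 cells, 236 of them from *Atf4* WT/WT hosts) was set aside. Clustering, run without the 5 members and without *Atf4*, gave 730 cancer-associated fibroblast (CAF)-like cells, 23719 melanoma-like cells, 897 immune cells, 36 endothelial-like cells and 2787 cells of 3 unnamed clusters with few UMIs. All 14 CAF markers were found in at least 10% of CAF-like cells, from 31.0% for *Fbln1* to 95.9% for *Col3a1*, and all 10 melanoma markers in at least 10% of melanoma-like cells. CAF-like cells were few and uneven: KO3 gave 10 cells and 40826 UMIs, and KO4 gave 241 cells and 1477144 UMIs. The targeted gene followed the labels: *Atf4* was at 278 to 323 CPM (UMIs of a gene per 1000000 UMIs of all genes) in CAF-like cells of *Atf4* WT/WT hosts and at 90.0 to 171 in *Atf4* Δ/Δ hosts (log2 fold change −1.30 ± 0.20 SE, adjusted p = 0.0375, edgeR). In melanoma-like cells it differed by 0.03 ± 0.14 SE (adjusted p = 0.961). At most 14 barcode sequences were shared by any 2 libraries.

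Levels below are in CPM, with UMIs summed over the cells of a class in 1 tumour. These libraries count the 3′ ends of transcripts, so a level does not scale with transcript length. Classes come from clustering the same cells, so differences between classes are described without a test.

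*Lox* was the most abundant member in fibroblasts and was close to absent elsewhere. In CAF-like cells its level was 1297, 479, 1493 and 1053 CPM in WT1 to WT4, and 1531, 1625, 588 and 1347 CPM in KO1 to KO4. WT2 and KO3 were the low tumours, one of each genotype, and the mean was 1176 ± 434 CPM (SD, n = 8). In melanoma-like cells *Lox* had 114 UMIs in all, between 0.0753 CPM in KO3 and 1.72 CPM in KO4, and immune cells had 3 UMIs (1.67 CPM with all tumours summed). The melanoma-like value is no higher than that of immune cells and is read as background. The tumours with most CAF-like cells, KO4 and KO1, also had the highest *Lox* in melanoma-like cells, 1.72 and 0.657 CPM. What part RNA released from CAFs has in that value was not tested.

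*Loxl1*, the member best known from elastic fibres, had the same restriction at a lower level. Its CAF-like level was 325, 251, 477 and 397 CPM in WT1 to WT4, and 365, 371, 171 and 349 CPM in KO1 to KO4. The mean was 338 ± 92.8 CPM (SD, n = 8), and the lowest value came from the 10 cells of KO3, with 7 UMIs. Melanoma-like cells held 38 UMIs of *Loxl1* (0.151 ± 0.0896 CPM, n = 8), and immune cells held 1.

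*Loxl2* was found both in fibroblasts and in melanoma cells. In CAF-like cells it was at 378, 343, 497 and 646 CPM in WT1 to WT4, and at 440, 502, 441 and 538 CPM in KO1 to KO4 (mean 473 ± 95.4 CPM, SD, n = 8). In melanoma-like cells it was at 20.3, 20.6, 15.2 and 10.3 CPM in WT1 to WT4, and at 17.2, 15.4, 17.5 and 22.0 CPM in KO1 to KO4 (mean 17.3 ± 3.78 CPM). Fibroblasts were higher in each of the 8 tumours, by 16.6 to 62.9 times (geometric mean 27.5). Since melanoma cells were far more numerous, they held 4578 of the 6595 UMIs of *Loxl2* in kept cells and CAF-like cells 1913.

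*Loxl3* was the most even member. Its CAF-like level was 124, 127, 117 and 142 CPM in WT1 to WT4, and 94.4, 162, 147 and 146 CPM in KO1 to KO4 (mean 132 ± 21.2 CPM, SD, n = 8). In melanoma-like cells the 8 tumours lay between 13.6 CPM in KO3 and 16.8 CPM in KO4 (mean 15.2 ± 1.28 CPM), so that fibroblasts were 8.65 times higher (6.70 to 10.8). Melanoma-like cells held 3910 of the 4536 *Loxl3* UMIs. *Loxl4* was rare throughout: 36 UMIs in CAF-like cells (9.13 ± 8.40 CPM, none in WT2 and KO2), 43 in melanoma-like cells and 0 in immune cells, where 3 counts would be 1.67 CPM.

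In CAF-like cells the mean levels ran from *Lox* over *Loxl2*, *Loxl1* and *Loxl3* to *Loxl4*. The ranges over tumours overlapped between *Loxl2* and *Loxl1*, and between *Lox* and *Loxl2* through WT2 and KO3. Within each tumour, however, the 5 members kept this order. In melanoma-like cells *Loxl2* and *Loxl3* overlapped, and both were well above the other members. *Lox*, *Loxl1*, *Loxl2* and *Loxl3* were each higher in CAF-like than in melanoma-like cells in 8 of 8 tumours, an order that 11.2% of 11820 genes with at least 200 UMIs also had. T/NK-like cells (82 cells) had 0 UMIs of every member, which at this depth allows up to 33.8 CPM. Of 36 endothelial-like cells, 2 had a UMI of *Loxl2*, 2 of *Loxl3* and none of the other members.

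**Figure D1:**
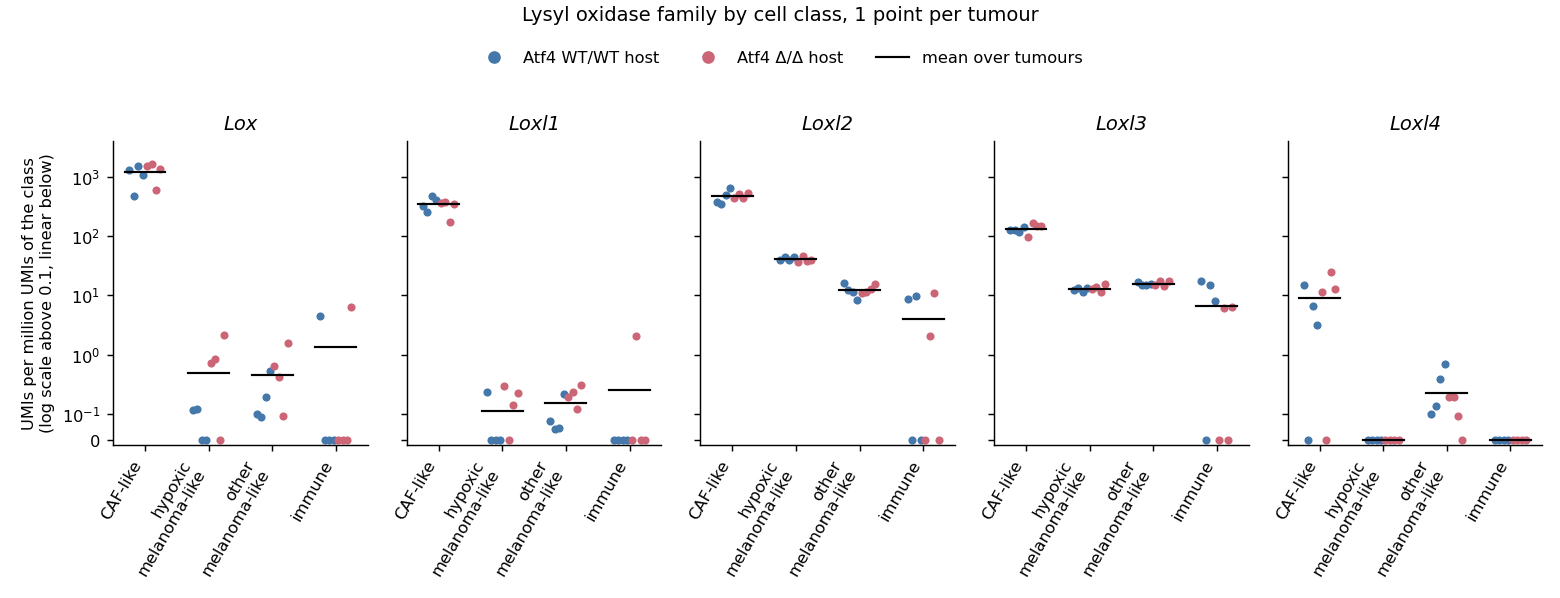
Level of each lysyl oxidase gene in CPM (vertical axis, logarithmic above 0.1 and linear below) in CAF-like, hypoxic melanoma-like, other melanoma-like and immune cells, with 1 point per tumour (blue *Atf4* WT/WT, red *Atf4* Δ/Δ) and the mean as a line. *Lox* and *Loxl1* sit near 1176 and 338 in CAF-like cells and below 3 in melanoma-like cells, while *Loxl2* and *Loxl3* have values above 8 in both melanoma-like classes.

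The share of cells in which a member was caught was as high for *Loxl2* as for *Lox* in fibroblasts. A UMI of *Lox* was found in 78.9% of CAF-like cells (exact binomial 95% interval 75.8 to 81.8%, counting error only), of *Loxl2* in 79.0%, of *Loxl1* in 68.1%, of *Loxl3* in 42.9% and of *Loxl4* in 4.11%. The median CAF-like cell held 4580 UMIs. For comparison, in immune cells, whose median was 1326 UMIs, the shares were 0.334% for *Lox*, 0.669% for *Loxl2*, 0.111% for *Loxl1* and 1.45% for *Loxl3*. With each cell thinned to 2000 UMIs, *Lox* was found in 73.0% of CAF-like and 0.0848% of melanoma-like cells. *Loxl2* was then found in 61.7% of CAF-like, 3.64% of melanoma-like and 0.697% of immune cells. *Loxl3* was found in 23.2%, 3.07% and 1.74% of these classes, so that its melanoma-like share is nearer to the immune one. The thinned immune shares rest on only 287 cells. Immune cells also held a subcluster of 32 cells with melanoma markers (median 9160 UMIs), whose part in these shares was not tested.

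Within the fibroblasts, a second clustering gave 5 subclusters, named by markers. They were hypoxic (376 cells, led by *Spp1*, *Inhba*, *Cck* and *Pgf*), adventitial-like (128 cells, with the markers *Pi16* and *Clec3b*), cycling (89 cells), melanoma-marked (79 cells that also carried *Dct*, *Pmel* and *Mlana*) and perivascular-like (58 cells, with the markers *Rgs5*, *Kcnj8* and *Notch3*). The hypoxic name rests on 2 listed markers, *Pgf* and *Ndrg1*, among the 10 leading genes. Of 10 hypoxia markers 9 were in at least 10% of these cells, and *Car9* was in 9.04%. The name describes markers only. Values per tumour are given where a tumour had at least 10 cells of the subcluster. The melanoma-marked cells had a median of 12665 UMIs, against 2578.5 to 5779 in the others, no doublet caller was run, and the part of melanoma RNA in their lower member levels was not tested.

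*Lox* separated perivascular-like cells from every other fibroblast subcluster. In hypoxic cells it was at 1831, 951, 1798 and 1422 CPM in WT1 to WT4, and at 1843, 1575 and 1765 CPM in KO1, KO2 and KO4. Adventitial-like cells had 1473 CPM in WT1 and 2368, 2637 and 1986 CPM in KO1, KO2 and KO4, and cycling cells lay between 1219 and 2266 CPM in 5 tumours. The order of these 3 subclusters differed between tumours, since hypoxic cells were above adventitial-like ones in 1 of 4 tumours and above cycling ones in 2 of 5. Melanoma-marked cells were lower, at 859 CPM in WT1, 539 in KO1 and 311 in KO4. In perivascular-like cells *Lox* was at 15.5 CPM in WT2, 30.5 in WT4 and 0 in KO4, which is 2 UMIs in 58 cells. Summed over tumours, perivascular-like cells had 0.664% of the *Lox* level of hypoxic, adventitial-like and cycling cells together (exact 95% interval 0.0804 to 2.40%, counting error only). Of 2085 genes with at least 200 UMIs in those cells, 6.47% were below 10% in perivascular-like cells, and the median gene was at 97.4%.

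Summed over tumours too, *Loxl1*, *Loxl2* and *Loxl3* were lower in perivascular-like cells by less. *Loxl1* was at 18.9% of the level of the other subclusters (10.5 to 31.2%, 15 UMIs), *Loxl3* at 52.7% (29.2 to 87.8%, 15 UMIs) and *Loxl2* at 69.6% (54.4 to 87.8%, 74 UMIs). These intervals cover counting error only, not the spread between tumours. By tumour, hypoxic cells were above perivascular-like ones in 3 of 3 for *Loxl1* and *Loxl3*, but in 2 of 3 for *Loxl2*. In KO4 *Loxl2* was at 606 CPM in perivascular-like and 577 CPM in hypoxic cells. *Loxl3* was there at 110 CPM in perivascular-like and 106 CPM in adventitial-like cells. *Loxl2* was found in 67.2% of perivascular-like cells and *Lox* in 3.45%. *Loxl4* had 0 UMIs, against 34 in the other subclusters, which is too few to tell apart from their level. These cells carried all 10 perivascular markers in at least 10% of cells, with *Rgs5* in 94.8%, but 8 of 14 CAF markers and no UMI of *Pdgfra*, the PDGF receptor of most fibroblasts.

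Substrates and helper genes of the same fibres were read in the same way, beside the 6.47% of 2085 genes that were below 10%. Of 7 substrate genes with enough UMIs 1 was below 10% in perivascular-like cells, *Eln*, which encodes elastin (7.56% of the other subclusters, 1 UMI against 208). Among the fibrillar collagens *Col1a1* was at 24.0%, *Col1a2* at 22.1%, *Col3a1* at 17.1% and *Col5a3* at 82.4%. Of 10 elastic fibre genes with enough UMIs, 6 were below 10%. Among these were *Fbln2* (3.05%), *Mfap5* (2.25%) and *Emilin1* (3.4%), which encode proteins that coat or organise elastic fibres. Of 15 genes for collagen modification 1 was, the lysyl hydroxylase *Plod2* at 8.08%, whose product prepares lysines for cross-linking, and of 7 genes for maturation and partners none was. *Sparc* and *Serpinh1*, 2 collagen-binding genes, were at 84.4% and 93.7%. Of 12 HIF target genes 5 were below 10%, among them *Ndrg1* (2.95%). However, 9 of the 18 listed HIF targets are also in the marker list that named the hypoxic subcluster, which is part of this comparison.

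*Loxl1*, *Loxl2* and *Loxl3* also differed among the larger subclusters. *Loxl1* was highest in adventitial-like cells, at 661 CPM with all tumours summed, against 482 in cycling and 369 in hypoxic cells. It was higher in adventitial-like than in hypoxic cells in 4 of 4 tumours and higher in cycling than in hypoxic cells in 5 of 5. *Loxl3* ran the other way: hypoxic cells (176 CPM) were above adventitial-like cells (114 CPM) in 4 of 4 tumours, by 1.49 times (1.11 to 1.87), and cycling cells were at 178 CPM. The share of all genes with these orders was not counted, so they are not set apart from other genes. Adventitial-like values per tumour came from WT1, KO1, KO2 and KO4 only. *Loxl2* was at 578, 674 and 627 CPM in hypoxic, adventitial-like and cycling cells, and the order changed from tumour to tumour. The highest single value was 915 CPM in hypoxic cells of WT4, where the other 6 tumours lay between 456 and 577 CPM.

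**Figure D2:**
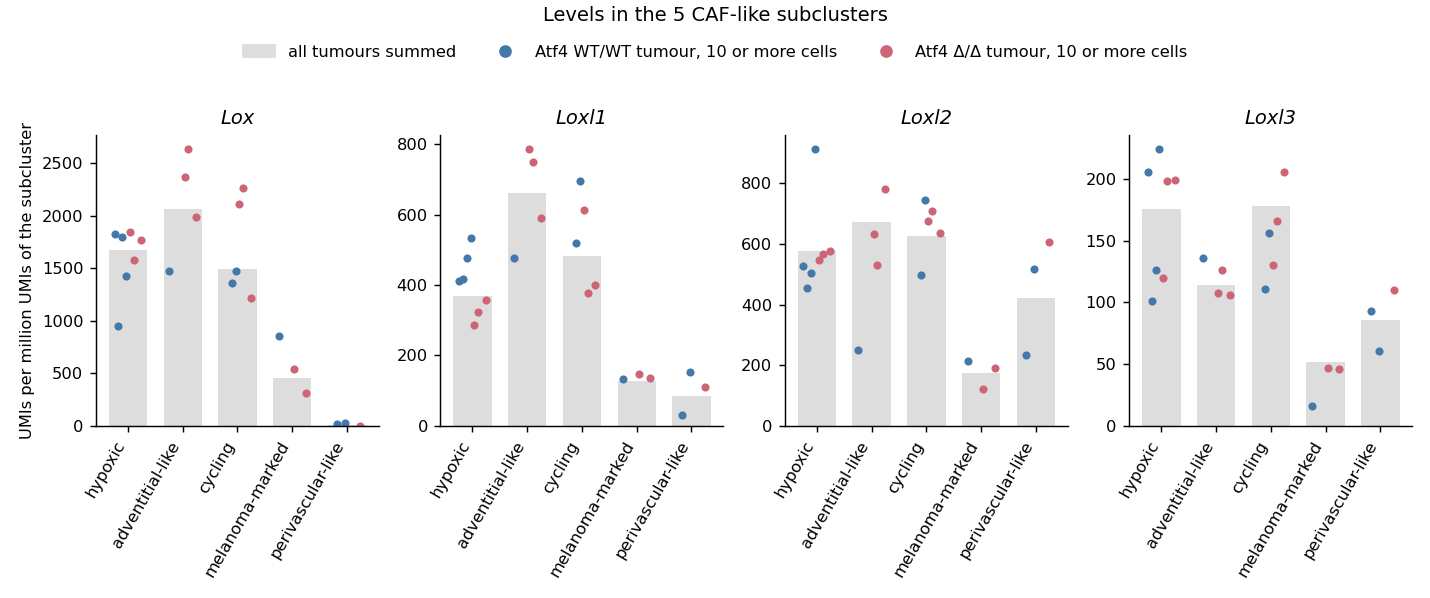
Levels of *Lox*, *Loxl1*, *Loxl2* and *Loxl3* in CPM in the 5 CAF-like subclusters (bars, all tumours summed, points, single tumours with at least 10 cells, blue *Atf4* WT/WT and red *Atf4* Δ/Δ). *Lox* falls to 11.4 in the perivascular-like bar and *Loxl2* stays at 423.

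The CAF-like level of *Lox* followed the share of perivascular-like cells across tumours. That share was 5.63, 37.3, 3.13 and 17.1% of CAF-like cells in WT1 to WT4, and 1.59, 0 and 7.05% in KO1, KO2 and KO4, and in KO3 it was 2 of 10 cells. WT2 and KO3, the tumours with least *Lox*, had the highest shares. Over the 8 tumours Pearson's r was −0.947 (two-sided exact permutation p = 7.44e-05, adjusted 0.000446 over 6 relations) and Spearman's rho −0.976 (exact permutation p = 0.000397, adjusted 0.00238). Without WT2 and KO3 r was −0.968. The CAF-like level sums over subclusters whose difference in *Lox* was known when the relation was chosen, so these values are no separate support for it. Within hypoxic cells alone *Lox* was also lowest in WT2 among the tumours given above. What part the share has in the relation was not tested, and groups of 4 are too small for a value within each genotype. For *Loxl1* r was −0.622 (exact permutation p = 0.112) and 0.0116 without WT2 and KO3, for *Loxl2* −0.306 (p = 0.447, exact permutation) and 0.708 without these tumours, and for *Loxl3* 0.111 (p = 0.789, exact permutation) and 0.209.

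In melanoma cells, *Loxl2* marked the hypoxic state. Of the 10 melanoma-like clusters 9 were named by state, 1 (3171 cells, led by *Cenpa* and *Ccnb2*) passed no naming threshold, and 2 carried hypoxia markers (4870 cells). In these, *Loxl2* was at 39.0, 43.4, 38.9 and 44.8 CPM in WT1 to WT4, and at 36.1, 45.4, 38.2 and 39.9 CPM in KO1 to KO4 (mean 40.7 ± 3.4 CPM, SD, n = 8). In the other melanoma-like cells it was at 16.3, 12.4, 11.3 and 8.26 CPM in WT1 to WT4, and at 10.9, 11.2, 12.9 and 15.2 CPM in KO1 to KO4 (mean 12.3 ± 2.55 CPM). The ranges did not overlap, hypoxic cells were higher in 8 of 8 tumours, and the geometric mean of the ratio was 3.36 (2.39 to 5.43). Of 11569 genes with at least 200 UMIs, 14.6% were higher in hypoxic cells in all 8 tumours, and by the ratio of mean levels *Loxl2* stood at place 64 of 11569. It was found in 29.3% of hypoxic and 11.8% of the other melanoma-like cells. Fibroblasts stayed above the hypoxic melanoma cells, by 7.91 to 14.4 times.

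*Loxl3* did not share this pattern. It was at 12.1, 13.2, 11.5 and 13.5 CPM in hypoxic cells of WT1 to WT4, and at 12.6, 13.8, 11.1 and 15.7 CPM in KO1 to KO4, against a mean of 15.6 ± 1.29 CPM in the other melanoma-like cells. Hypoxic cells were lower in 8 of 8 tumours, by a small amount (ratio 0.826, 0.717 to 0.913), and the ranges overlapped. Since 29.5% of genes were lower in hypoxic cells in all 8 tumours, this direction was common. *Lox*, also a known HIF-1 target, was at 0.493 ± 0.748 CPM in hypoxic and 0.450 ± 0.492 CPM in the other melanoma-like cells, both at the background level. Of the 43 *Loxl4* UMIs in melanoma-like cells, 0 were in the 4870 hypoxic cells, where 3 counts would be 0.0624 CPM. The stress cluster, led by *Fgf21* and *Nupr1*, held 20 of the 43 (0.751 CPM), 9 of them from WT4.

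By cluster, the hypoxic one without cell-cycle genes had a mean *Loxl2* of 42.1 ± 4.00 CPM (SD, n = 8) and the one with G2/M genes 38.5 ± 6.0 CPM. Neither was higher throughout, since the first was above the second in 5 of 8 tumours. Next came the interferon cluster, led by *Ifit1* and *Rsad2*, at 21.5 ± 9.59 CPM, and then S phase, stress, G2/M and late pigment clusters down to 8.76 ± 4.30 CPM, with ranges that overlapped. The cluster without a state name lay among these, at 11.6 ± 2.23 CPM. The first hypoxic cluster was above each of the 8 others in 8 of 8 tumours. The second was above the interferon cluster in 7 of 8 and above the remaining 7 clusters in 8 of 8.

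**Figure D3:**
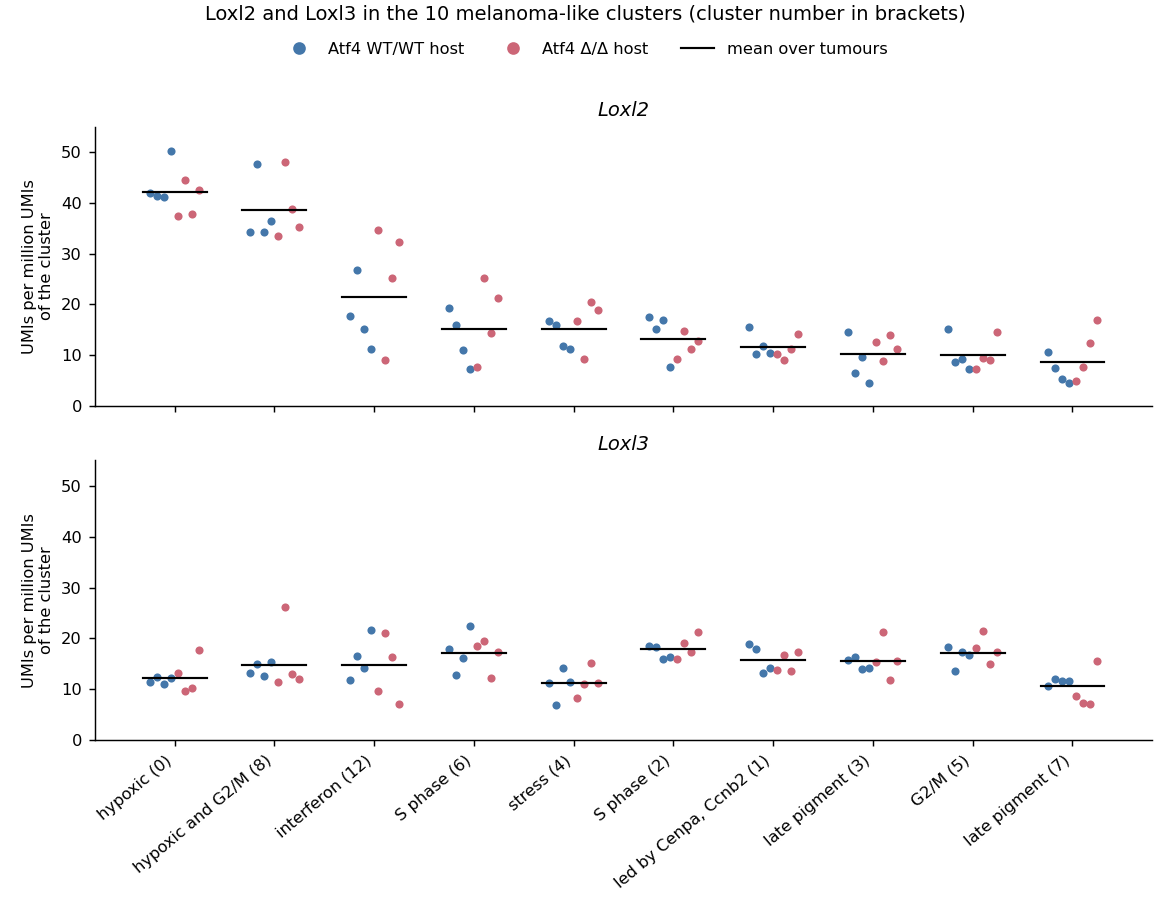
*Loxl2* (top) and *Loxl3* (bottom) in CPM in the 10 melanoma-like clusters, ordered by mean *Loxl2*, with 1 point per tumour (blue *Atf4* WT/WT, red *Atf4* Δ/Δ) and the mean as a line. For *Loxl2* the 2 hypoxic clusters, at 42.1 and 38.5, stand above the rest, while *Loxl3* has no such step.

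Genes that act beside *Loxl2* went both ways in the same comparison. Of all 11569 genes with at least 200 UMIs, 14.6% were higher and 29.5% lower in hypoxic cells in 8 of 8 tumours. No test set the lists below against these shares. All 18 HIF target genes were higher in hypoxic melanoma cells in 8 of 8 tumours, but 10 of the 18 are also markers by which these clusters were named. For collagen modification 5 of 14 counted genes were higher in 8 of 8 tumours and 5 were lower. Higher were the prolyl hydroxylases *P4ha2* (2.79 times) and *P4ha1* (1.74), the lysyl hydroxylases *Plod2* (2.19) and *Plod1* (1.48), and *P3h3* (1.31). Lower were *P3h1*, *Ppib*, *Serpinh1*, *Fkbp10* and *Colgalt1*, which act on or escort procollagen in the endoplasmic reticulum. Of 8 genes for maturation and partners, 3 were higher in 8 of 8 tumours, *Fn1* (3.04 times), *Thbs1* (2.37) and the copper pump *Atp7a* (1.22), and 2 were lower, *Pcolce* and the copper chaperone *Atox1*. Of 5 substrate genes only *Col5a1* was higher in 8 of 8 (1.61 times). Of 6 elastic fibre genes none was higher, and 1, *Emilin1*, was lower in 8 of 8 (0.76 times). Mean *Col1a1*, *Col1a2* and *Col3a1* in the hypoxic and other melanoma-like cells lay between 3.27 and 6.88 CPM, against 7585 to 9819 CPM in CAF-like cells. What part RNA released from CAFs has in those values was not tested.

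Over both parts together, the melanoma-like level of *Loxl2* ran with the share of a tumour's melanoma cells that were hypoxic. That share ran from 6.29% in WT4 to 30.9% in KO4, the tumours with the lowest and the highest *Loxl2*. Pearson's r was 0.862 over 8 tumours (two-sided exact permutation p = 0.00523, adjusted 0.0157 over 6 relations) and Spearman's rho 0.881 (exact permutation p = 0.00724, adjusted 0.0217). Without WT4 and KO4 r was 0.611, so that the strength of the relation rests partly on those tumours. For *Loxl3* r was −0.152 (p = 0.715, exact permutation) and −0.560 without them. The melanoma-like level sums over hypoxic and other cells, and their difference in *Loxl2* was known when the relation was chosen, so these values are no separate support for it. In the other melanoma-like cells alone WT4 was also lowest (8.26 CPM), and KO4 (15.2 CPM) was second to WT1 (16.3 CPM). What part the share has in the relation was not tested.

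**Figure D4:**
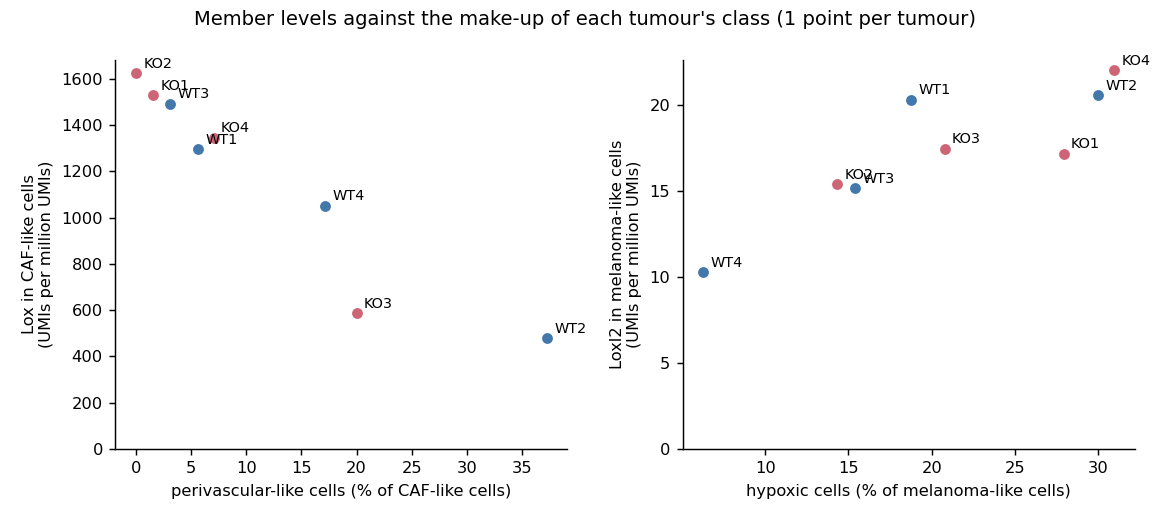
Left, *Lox* in CAF-like cells (CPM) against the share of perivascular-like cells among them (percent), and right, *Loxl2* in melanoma-like cells against the share of hypoxic cells among them (percent), with 1 labelled point per tumour (blue *Atf4* WT/WT, red *Atf4* Δ/Δ). *Lox* runs from 1625 at 0% to 479 at 37.3%, and *Loxl2* from 10.3 at 6.29% to 22.0 at 30.9%.

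The study asked what host *Atf4* does in CAFs, so each member was compared between genotypes over tumours (edgeR quasi-likelihood test, adjusted over all genes tested). In CAF-like cells no member passed the threshold of 0.05, nor with DESeq2, and none had an unadjusted p below 0.05. *Lox* was at 1080 ± 440 CPM in the *Atf4* WT/WT group, against 1273 ± 471 CPM in the *Atf4* Δ/Δ group (SD, n = 4 each), a log2 fold change of 0.32 ± 0.32 SE (adjusted p = 0.953). *Loxl1* was at 362 ± 96.9 and 314 ± 95.6 CPM (log2 fold change −0.07 ± 0.22 SE, adjusted p = 1.00). *Loxl2* was at 466 ± 137 and 480 ± 48.3 CPM (0.08 ± 0.20 SE, adjusted p = 0.993), and *Loxl3* at 128 ± 10.6 and 137 ± 29.5 CPM (0.10 ± 0.19 SE, adjusted p = 0.989). The groups overlapped for each of these genes. The 95% intervals of the log2 fold changes ran from −0.31 to 0.94 for *Lox*, −0.51 to 0.37 for *Loxl1*, −0.31 to 0.47 for *Loxl2* and −0.28 to 0.48 for *Loxl3*. *Loxl4* had too few UMIs to be tested. In this comparison 0.0431% of 4638 genes passed.

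A subcluster was tested where at least 3 tumours of each genotype held 10 of its cells, which left the hypoxic fibroblasts (4 *Atf4* WT/WT and 3 *Atf4* Δ/Δ). There *Loxl1* had the clearest difference. It was at 411, 418, 478 and 532 CPM in WT1 to WT4 and at 287, 325 and 358 CPM in KO1, KO2 and KO4. The 2 groups did not overlap, as for 6.61% of 1134 genes with at least 200 UMIs in which every *Atf4* Δ/Δ tumour was below every *Atf4* WT/WT tumour. The log2 fold change was −0.45 ± 0.17 SE and did not pass the threshold (adjusted p = 0.393, edgeR). *Lox* (0.25 ± 0.19 SE), *Loxl2* (−0.04 ± 0.21 SE) and *Loxl3* (0.11 ± 0.28 SE) did not pass either, and 0.37% of 2431 genes did. The share of perivascular-like cells was highest in WT2. The *Rgs5* level of CAF-like cells ranged from 26.7 to 1336 CPM in WT1 to WT4 and from 0 to 165 CPM in KO1 to KO4. KO3 and KO4 had similar *Rgs5* (147 and 165 CPM) but *Lox* at 588 and 1347 CPM. What part composition has in the *Lox* values was not tested. With perivascular-like cells left out, a choice made after their values were seen, the log2 fold change of *Lox* was 0.41 ± 0.20 SE (adjusted p = 0.717, 4 against 3 tumours, 0.0612% of genes passing). With melanoma-marked cells left out too it was 0.48 ± 0.17 SE (adjusted p = 0.427, 0.314% of genes passing). Both settings also lost KO3, which kept 8 cells and was the *Atf4* Δ/Δ tumour with least *Lox* in CAF-like cells (588 CPM). Leaving out single tumours alone, KO3 among them, gave log2 fold changes of 0.078 to 0.51 in CAF-like cells. That range holds both values, 0.41 and 0.48. The part of the subclusters and that of the lost tumour were not separated.

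In melanoma-like cells *Loxl2* (log2 fold change 0.07 ± 0.19 SE, adjusted p = 0.924) and *Loxl3* (−0.01 ± 0.09 SE, adjusted p = 0.966) did not pass, nor did *Lox* at its background level (1.83 ± 0.79 SE, adjusted p = 0.414), while 0.0319% of 12556 genes did. Within the hypoxic melanoma-like cells *Loxl2* was at 41.5 ± 3.04 CPM in WT1 to WT4, against 39.9 ± 3.99 CPM in KO1 to KO4 (log2 fold change −0.08 ± 0.10 SE, adjusted p = 0.857, 95% interval −0.27 to 0.11). *Loxl3* differed there by 0.07 ± 0.14 SE, and 0.0646% of 10831 genes passed. In the other melanoma-like cells the differences were −0.00 ± 0.17 SE for *Loxl2* and −0.02 ± 0.09 SE for *Loxl3*. There 0% of 12275 genes passed with edgeR, and 1252 had an unadjusted p below 0.05.

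**Figure D5:**
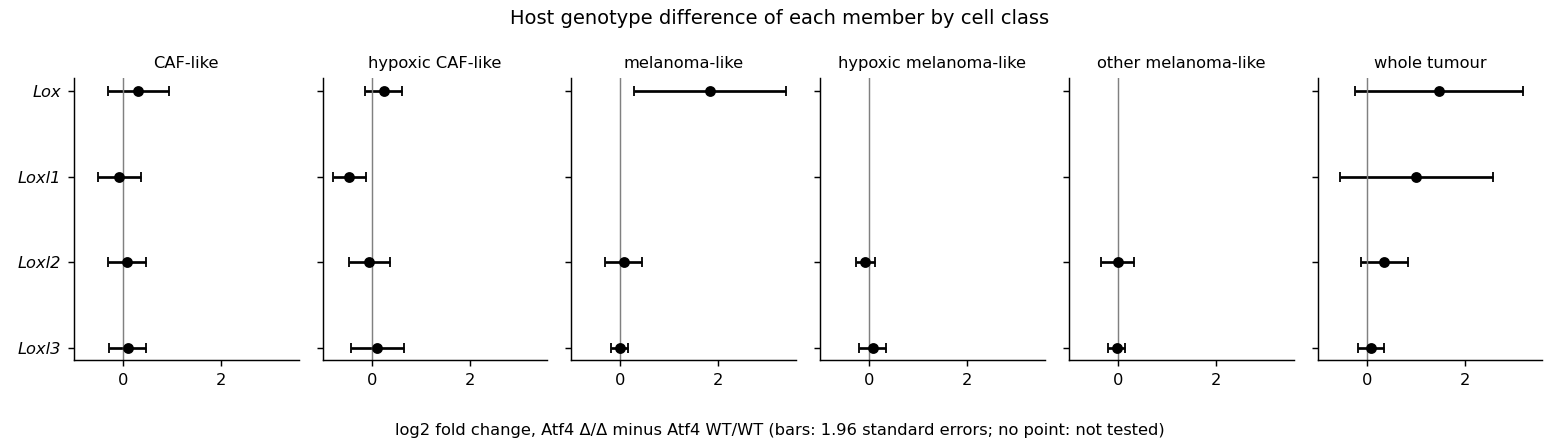
Log2 fold change of 4 members between *Atf4* Δ/Δ and *Atf4* WT/WT tumours (horizontal axis, bars 95% intervals) in 6 cell classes, where a missing point means that the gene was not tested. Most intervals include 0, and the exceptions, *Loxl1* in hypoxic CAF-like cells (−0.45) and *Lox* in melanoma-like cells (1.83), did not pass the adjusted threshold.

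Summed over all kept cells, *Lox* was at 8.84, 3.56, 17.8 and 13.5 CPM in WT1 to WT4, and at 39.0, 23.6, 0.666 and 59.99 CPM in KO1 to KO4. The *Atf4* Δ/Δ group held both the lowest and the highest tumour, and these had the fewest and the most CAF-like cells (10 and 241). In such sums fewer cells of a type and less RNA per cell cannot be told apart. The log2 fold changes were 1.47 ± 0.88 SE for *Lox*, 1.01 ± 0.80 SE for *Loxl1*, 0.36 ± 0.24 SE for *Loxl2*, 0.09 ± 0.13 SE for *Loxl3* and −0.18 ± 0.68 SE for *Loxl4* (adjusted p from 0.574 to 0.942, edgeR). Of 13117 genes 0% passed with edgeR, and 1368 had an unadjusted p below 0.05.

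Whether the 2 genotypes differed by the same amount in both main classes was tested as an interaction (CAF-like log2 fold change minus the melanoma-like one). It was −1.51 ± 0.41 SE on the log2 scale for *Lox* (adjusted p = 0.0663) and did not pass, with a range of −2.21 to −0.76 when tumours were left out in turn. Without WT2, WT4, KO1, KO2 or KO3 it passed (lowest adjusted p 0.000242), without WT1 or WT3 it did not (adjusted p = 0.465 and 0.205), and without KO4 it was −0.76 (adjusted p = 1.00). It was −1.20 ± 0.51 SE for *Loxl1* (adjusted p = 0.656), −0.02 ± 0.22 SE for *Loxl2* and 0.10 ± 0.24 SE for *Loxl3*. Of 12754 genes 0.376% passed. The melanoma-like side of the *Lox* and *Loxl1* values is at the background level given above.

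Related genes were counted in the same CAF-like test, by lists. No gene passed among 7 tested fibrillar collagen and elastin substrates, 14 elastic fibre genes, 8 maturation and partner genes, 15 collagen modification genes and 16 HIF targets. Their median log2 fold changes were 0.29, 0.22, 0.10, −0.03 and 0.50, against −0.01 over all genes tested. The largest and smallest values per list were *Col1a1* (0.40 ± 0.17 SE) and *Col5a1* (−0.01 ± 0.19 SE) among substrates, and *Efemp1* (1.02 ± 0.46 SE) and *Fbn2* (−0.64 ± 0.36 SE) among elastic fibre genes. Among maturation genes they were *Bmp1* (0.53 ± 0.16 SE, adjusted p = 0.529), which encodes the protease that removes the propeptides of procollagen and of lysyl oxidase, and *Pcolce2* (−0.40 ± 0.30 SE). Among collagen modification genes they were *Crtap* (0.34 ± 0.17 SE) and *P3h4* (−0.31 ± 0.27 SE), and among HIF targets *Car9* (0.86 ± 0.40 SE) and *Higd1a* (−0.06 ± 0.28 SE). In melanoma-like cells, their 2 parts and whole tumours no gene of the lists passed either.

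The genes whose levels ran most like each member over 26 cell groups were looked up among 11986 genes with at least 200 UMIs (Pearson's r of log2 of CPM plus 1, a description, since the groups share libraries and depth). For *Lox* they were *Cpxm1* (0.976), *Medag* (0.975) and *Gm12840* (0.975), and for *Loxl1* they were *Ccdc80* (0.9901), *P4ha3* (0.9899) and *Slit3* (0.988). For *Loxl2* they were *Col5a3* (0.922), *Cald1* (0.921) and *Bmp1* (0.917), for *Loxl3* they were *Ttc37* (0.919), *Fkbp7* (0.915) and *Efemp2* (0.907), and for *Loxl4* they were *Sec16b* (0.983), *Ogn* (0.975) and *Lrrc17* (0.959). Among members, *Lox* ran most like *Loxl1* (0.953), and *Loxl2* had 0.734 with *Lox*, 0.833 with *Loxl1* and 0.812 with *Loxl3*.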

How the data were processed

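The authors aligned the reads with Cell Ranger (3.1.0 and GRCm38 in the submitters' processing notes, which also name Seurat 3.2.1) and deposited the UMI counts of each gene in each barcode, 1 matrix for each of the 8 tumours. The files hold whole numbers without normalization, and 0 columns were left unused. The labels name the V3 kit and 12 weeks of age, which differ from the paper's methods, and which library ran on which sequencer is not stated. The labels give replicate numbers but do not say that a number marks a shared litter or day.

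Barcodes were kept with 200 to 5000 genes and up to 7.5% of UMIs from mitochondrial genes. A gene had to be seen in 3 or more cells. In R 4.3.3 with Seurat 5.3.0 counts were scaled to 10000 per cell, genotypes were integrated on 2000 variable genes without the members and *Atf4*, and 20 principal components were clustered at the resolution nearest to the 16 clusters of the study's methods. CAF-like and immune cells were clustered again. Clusters were named by fixed markers. The naming thresholds, among them a mean log2 fold of 0.75 for melanoma states, were set after the data had been seen. Doublets were not removed.

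Counts were summed per tumour and class, for tumours with at least 10 cells of it (40826 to 1477144 UMIs in CAF-like cells). Genotypes were compared on these sums with edgeR 4.0.16 (filterByExpr, TMM, quasi-likelihood test, genotype only, Benjamini-Hochberg over all genes tested, threshold 0.05), and the interaction with tumour as a block. The p-values of these tests set the difference tested against the spread between these tumours. The test was checked on simulated counts. Intervals of fold changes are 95% normal intervals from the standard error, exact binomial intervals and limits from 3 counts cover counting error only, and relations over tumours were tested by exact permutation. Alternatives were DESeq2 1.42.0, its size factors, no filter, the replicate block, sex, a limit of 15%, a marker gate, subclusters left out, the mean of single cells, thinning to 2000 UMIs and each tumour left out.

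The members and all lists were chosen with earlier results of these data known. Genes named in the text are the 5 members, the 3 genes most like each member with at least 50 UMIs, and for each list the genes past the threshold in CAF-like cells or otherwise those with the highest and lowest fold change. List genes named in the comparisons of subclusters and melanoma states were chosen after their values were seen. Small tumours, microarrays and images were not analysed here.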

Additional observations from a re-analysis of the deposited data

Results flagged for a closer look

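*Loxl1* in CAF-like cells of KO3 was at 171 CPM, far from the other *Atf4* Δ/Δ tumours (349 to 371 CPM). The gap to its neighbour was 0.886 of the range of the 4 tumours, above the 95% critical value for 4 samples. It was 1 of 34 such groups of 4 tumours examined, where chance gives about 1 in 20, and it rests on 10 cells.

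Barcodes left out for their mitochondrial share also held member UMIs. The 13016 barcodes above the limit had 135 UMIs of *Lox*, 53 of *Loxl1*, 1870 of *Loxl2*, 1663 of *Loxl3* and 24 of *Loxl4*. Their levels were 1.38, 0.543, 19.1, 17.0 and 0.246 CPM, against 19.8, 5.34, 24.6, 17.0 and 0.310 CPM in kept cells.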

How the results depend on the processing

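No member passed the threshold in CAF-like or melanoma-like cells under any setting run (lowest adjusted p 0.427 and 0.280, both for *Lox*). The log2 fold change of *Loxl3* in CAF-like cells turned to −0.050 without the perivascular-like and melanoma-marked subclusters, a setting chosen after seeing the data. That setting also lost KO3, which kept 8 cells. The cause was not tested. CAF-like cells of KO3 (10 cells) limit what can be seen there.

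Counts of genes passing moved more. In CAF-like cells 2 genes passed, against 4 with DESeq2, 102 with no filter, 1 without the melanoma-marked subcluster, 13 without both subclusters, and 0 with the replicate block, sex, a mitochondrial limit of 15% or the marker gate. In melanoma-like cells 4 passed, against 119 with DESeq2, 47 with no filter, and 0 with the replicate block, sex, the limit of 15% or the gate. With the replicate block the log2 fold change of *Lox* in CAF-like cells was 0.35 and that of *Loxl2* in melanoma-like cells 0.10, and no call on a member changed. Deviations of same-numbered tumours correlated at −0.14 to 0.16 in CAF-like and −0.36 to −0.06 in melanoma-like cells, so the numbers were not taken as pairs.

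With cells thinned to 2000 UMIs the shares of CAF-like cells with a UMI were 73.0% (*Lox*), 50.2% (*Loxl1*), 61.7% (*Loxl2*), 23.2% (*Loxl3*) and 1.55% (*Loxl4*), and those of melanoma-like cells 0.0848%, 0.0297%, 3.64%, 3.07% and 0.0297%. Levels with a limit of 15% or as the mean of single cells stayed within 1 SD.

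With each tumour left out in turn, log2 fold changes in CAF-like cells ran from 0.078 to 0.51 (*Lox*), −0.20 to 0.10 (*Loxl1*), −0.036 to 0.27 (*Loxl2*) and −0.016 to 0.27 (*Loxl3*). In melanoma-like cells they ran from 0.92 to 2.55 (*Lox*), −0.10 to 0.19 (*Loxl2*) and −0.061 to 0.052 (*Loxl3*), in hypoxic melanoma-like cells from −0.037 to 0.17 (*Loxl3*), and in the others from −0.14 to 0.18 (*Loxl2*) and −0.066 to 0.042 (*Loxl3*). In hypoxic CAF-like cells they ran from −0.14 to 0.22 (*Loxl2*) and −0.033 to 0.29 (*Loxl3*), and in whole tumours from 0.93 to 1.87 (*Lox*), 0.42 to 1.42 (*Loxl1*), −0.041 to 0.18 (*Loxl3*) and −0.63 to 0.49 (*Loxl4*). The interaction ran from −2.21 to −0.76 (*Lox*), −0.28 to 0.37 (*Loxl2*) and −0.035 to 0.20 (*Loxl3*). The numbers of genes passing ran from 0 to 1 in CAF-like, 0 to 21 in melanoma-like, 2 to 24 in hypoxic melanoma-like, 0 to 3 in other melanoma-like, 3 to 15 in hypoxic CAF-like cells, 0 to 2 in whole tumours and 25 to 92 in the interaction. The highest counts came without KO3 in melanoma-like (21) and hypoxic melanoma-like cells (24) and whole tumours (2), without WT1 in hypoxic CAF-like cells (15), and without KO2 in the interaction (92).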
